A study of Homo sapiens with 18 samples.

Results

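NF-kB subunit, inhibitor and target genes were followed in HepG2 cells, a human liver cancer line, treated with ligands made for or known from work on LRH-1, a nuclear receptor. The set was chosen by gene symbol, with earlier results of these data known. It holds 10 genes of the 35238 rows in the count table: the subunits RELA, RELB, NFKB1 and NFKB2, the inhibitors NFKBIA, NFKBIZ and TNFAIP3, and the cytokine-induced targets ICAM1, CXCL8 and UBD. All 10 had a row, and 9 passed the filter on low counts, CXCL8 being the exception. Of the 6 groups of 3 libraries, those given a small molecule at 10 µM (6N, 10CA or 6N-10CA) belong with the vehicle DMSO at 0.1%, and the remaining ones are the phospholipid DLPC (dilauroylphosphatidylcholine) at 100 µM with the vehicle ethanol at 0.1%. The labels name the vehicles without tying them to compounds, and this assignment comes from knowledge of the study. Serum was charcoal-stripped in every group during treatment, and no group received an inflammatory cytokine according to the labels. Total counts ran from 28135967 to 34992442 per library. Nothing says that the 3 replicates of a group were separate cultures, so p-values measure the spread between these libraries, which may be technical.

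NF-kB is a family of dimeric transcription factors. In resting cells inhibitor proteins of the IkB family hold the dimers in the cytoplasm, and signals from cytokine and pathogen receptors lead to the breakdown of the inhibitor and the entry of the dimer into the nucleus. Among the genes then induced are the inhibitors themselves, which close a negative feedback loop, and in liver cells NF-kB takes part in the response to inflammatory cytokines and in protection from cell death.

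The letters that NF-kB dimers are known to recognise are shown for the genes the results turn on, because the set is defined by this pathway. RefSeq transcription starts on GRCh38.p14 were found for 9 of the 10 genes, RELB having no entry, with 14 start windows in all. The 250 bases before each start were searched on both strands for the 10-letter NF-kB consensus, which is named here without its letters, and for the 9-letter motif GGAANTTCC. A match to either lay in 10 of the 14 windows and in 8 of the 9 genes, RELA being the gene without one. Over all 35116 windows of the same length, 9.96% held the consensus, 0.826% held the 9-letter motif and 10.4% held either. In NFKBIZ, NFKB1 and NFKBIA matches to both motifs overlapped in a single site, and in NFKB2 the 11 capitals are overlapping matches to the consensus shown as 1 site. Capitals mark the matched letters of 1 site per gene, and each line runs 5′ to 3′ along the strand of the gene.
NFKB1 (chr4:102501300-102501329, plus strand): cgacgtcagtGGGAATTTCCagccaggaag
NFKB2 (chr10:102394462-102394490, plus strand): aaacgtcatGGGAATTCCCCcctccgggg
NFKBIA (chr14:35404811-35404840, minus strand): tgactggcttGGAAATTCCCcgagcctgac
NFKBIZ (chr3:101827757-101827786, plus strand): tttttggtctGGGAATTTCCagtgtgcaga
TNFAIP3 (chr6:137867182-137867211, plus strand): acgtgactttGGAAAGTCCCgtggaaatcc
ICAM1 (chr19:10270924-10270952, plus strand): gctttagcttGGAAATTCCggagctgaag
CXCL8 (chr4:73740468-73740496, plus strand): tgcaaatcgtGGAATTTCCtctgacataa
UBD (chr6:29559766-29559795, minus strand): aatccaggcaGGGGATTTCCaactcaactc
The printed matches of NFKB1, UBD and TNFAIP3 began 49, 53 and 67 bases before the start. Those of NFKBIA, CXCL8 and NFKB2 (start 2) began 81, 91 and 107 bases before it. In ICAM1 the printed match began 186 bases before the start and in NFKBIZ (start 1) 223 bases before it. Further consensus matches are not in capitals. TNFAIP3 had another 55 bases before its start, and its first letters are the lower-case end of the printed line. NFKB2 had others 78 bases before start 2 and 176 and 21 bases before start 3. NFKBIZ had another 239 bases before start 2. The printed stretches of NFKB1, NFKB2, TNFAIP3, ICAM1 and UBD also overlap annotated exons of GENCODE release 29, and those of NFKBIA, NFKBIZ and CXCL8 overlap none. A match describes the letters and is not evidence of binding in these cells.

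**Figure D1:**
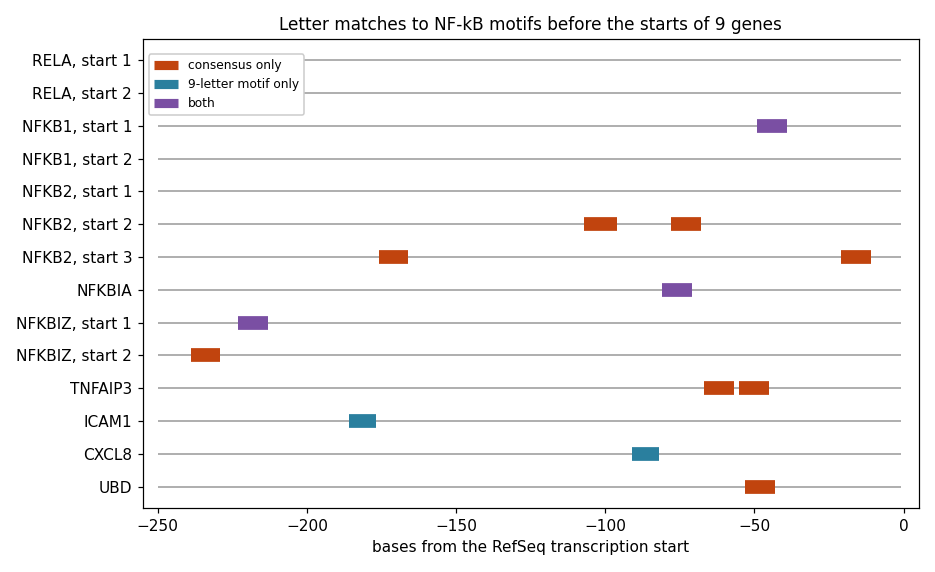
Positions of letter matches in the 250 bases before 14 RefSeq starts of 9 genes, with the distance from the start in bases on the x axis and 1 line per start; colours give the motif matched. Matches lie in 10 of the 14 windows, and both RELA windows hold none.

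All members but CXCL8 were well expressed. On the scale of CPM (library-scaled counts) per kilobase of exon, which allows levels of different genes to be set side by side, the mean level over the 18 libraries was highest for NFKBIA at 47.3 (SD 4.23), followed by ICAM1 at 30.5 and UBD at 27.0. RELA stood at 22.0, NFKB1 at 11.4 and TNFAIP3 at 10.6 CPM per kilobase. The subunits of the alternative pathway were lower, NFKB2 at 3.81 and RELB at 2.43, with NFKBIZ at 2.66 CPM per kilobase. CXCL8, which encodes the neutrophil chemokine interleukin-8, had only 3 to 16 counts per library and 0.117 CPM per kilobase on average. Without division by length its mean was 0.235 CPM, where the floor of 3 counts corresponds to 0.0847 to 0.108 CPM. DLPC had the lowest group mean for 7 of the 9 tested members, and ethanol had the highest for 5 of them. How often this holds over all genes was not counted, so whether the tally is particular to this set was not tested.

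**Figure D2:**
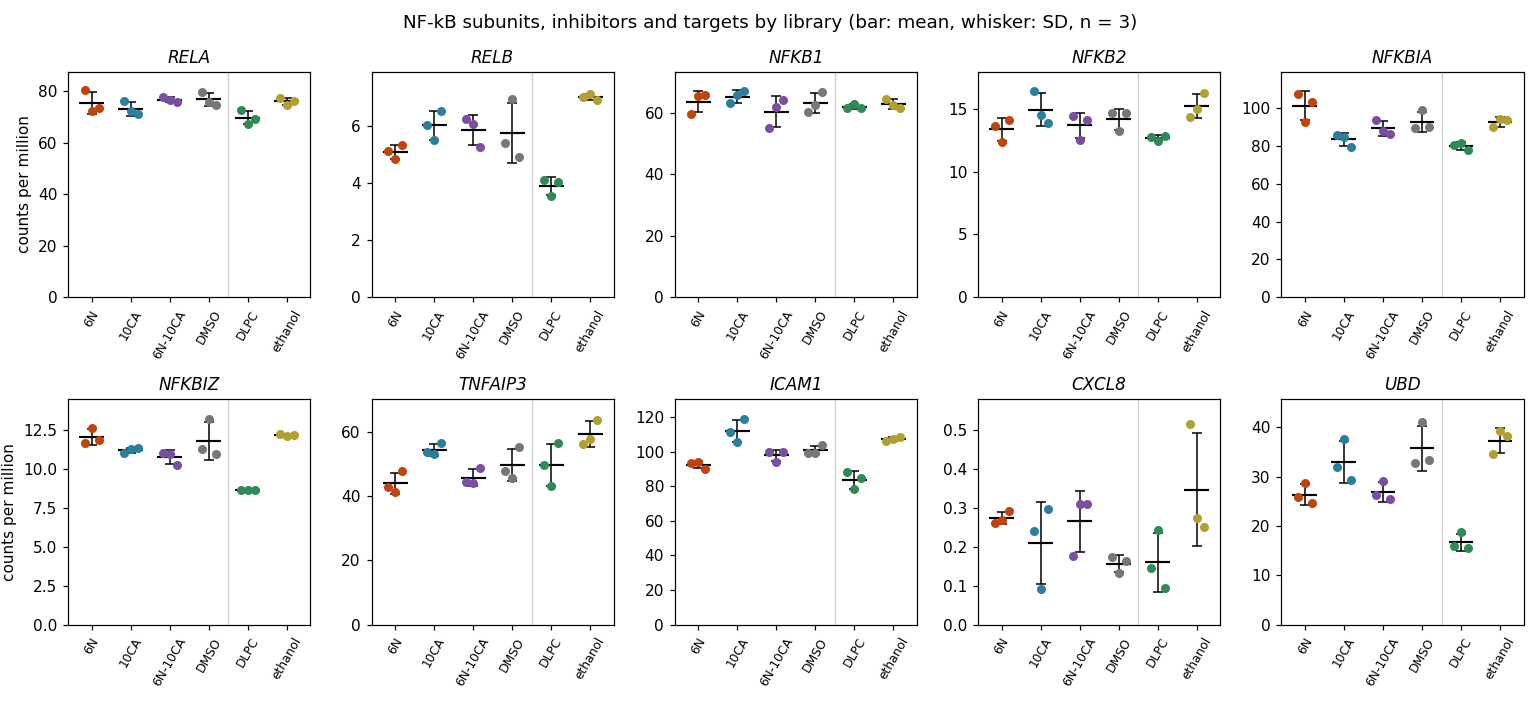
Level of each member in CPM in every library, by group, with the mean (bar) and SD (whisker) of 3 libraries; a grey line parts the DMSO set from the ethanol set. In UBD, RELB, NFKBIZ and ICAM1 the 3 DLPC libraries lie below all others of the same panel. The share of all genes with this arrangement was not counted.

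The first question was how each ligand moved these genes against its vehicle. More members passed with DLPC than with any of the small molecules, which were given at a lower dose: 4 of the 9 tested members fell and none rose, the target genes UBD and ICAM1, the subunit gene RELB and the inhibitor gene NFKBIZ. Of all 14797 genes tested, 1.04% were called in either direction in this comparison, by edgeR's quasi-likelihood test at a Benjamini-Hochberg adjusted p under 0.05. All 9 members had a log2 fold change below 0, with a median of -0.26 where the median of all genes was 0.00. In 7 of the 9 every DLPC library lay below every ethanol library, an arrangement found in 9.39% of all genes. The members were chosen with earlier results of these data known, so these shares describe the set and are no test of it.

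RELB encodes the transactivating partner of the NFKB2 product in the alternative NF-kB pathway (chr19:45001430-45038198, plus strand). Its level was 4.10, 3.53 and 4.03 CPM in the DLPC libraries, against 7.005, 7.12 and 6.90 CPM in the ethanol libraries. The DLPC libraries were all lower, with a coefficient of variation (SD over mean) of 8.02%, against 1.59% in the ethanol libraries. RELB fell to 55.5% of the ethanol level with DLPC, a log2 fold change of -0.85 (SE 0.13, edgeR adjusted p = 0.001849). Against DMSO in place of ethanol the value was smaller, -0.56 (adjusted p = 0.02497), the ethanol libraries having the highest RELB level of any group.

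The other subunit genes did not pass the test, although edgeR with a replicate block called NFKB2 (adjusted p = 0.03497) and RELA (0.03632). NFKB2, which encodes the precursor of the alternative pathway's DNA-binding subunit, had 12.8, 12.5 and 12.8 CPM in the DLPC libraries, against 14.4, 15.03 and 16.3 CPM in the ethanol libraries. The libraries did not overlap, and the log2 fold change was -0.26 (SE 0.08, edgeR adjusted p = 0.1586). It was -0.16 against DMSO in place of ethanol. RELA, the main transactivating subunit of the canonical pathway, had a log2 fold change of -0.13 (adjusted p = 0.2502), with 69.8 ± 2.69 CPM in DLPC libraries and 76.1 ± 1.30 CPM in ethanol libraries (SD, n = 3 each). NFKB1, whose product is cut to the DNA-binding partner of RELA, was at 62.1 ± 0.815 CPM in DLPC libraries and 62.9 ± 1.61 CPM in ethanol libraries (SD, n = 3 each). Its 95% interval ran from -0.14 to 0.10 on the log2 scale, so a fall of the size seen in RELB lay outside it.

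Among the inhibitors, NFKBIZ encodes an unusual IkB protein that sits in the nucleus and modulates transcription of NF-kB targets (chr3:101827991-101861022, plus strand). The DLPC libraries had 8.63, 8.68 and 8.65 CPM, against 12.3, 12.1 and 12.2 CPM in the ethanol libraries. These groups lay far apart, with coefficients of variation of 0.284% (DLPC) and 0.555% (ethanol), the lowest of any member. The other groups ran from 1.49% with 10CA to 10.3% with DMSO for the same gene. The DLPC libraries held 240 to 277 counts and the ethanol libraries 340 to 399, where counting alone gives a wider spread. The closeness is therefore no measure of precision for this gene. NFKBIZ fell to 70.9% of the ethanol level, a log2 fold change of -0.50 (SE 0.08, edgeR adjusted p = 0.002632).

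NFKBIA encodes IkB-alpha, the classic cytoplasmic inhibitor and an early NF-kB target (chr14:35401511-35404749, minus strand). It had 80.7, 81.4 and 77.8 CPM in the DLPC libraries, against 89.8, 94.4 and 93.7 CPM in the ethanol libraries. The groups did not overlap, and the log2 fold change of -0.21 (SE 0.06) missed the threshold (edgeR adjusted p = 0.08139). A change of like size passed with DMSO in place of ethanol (-0.22, adjusted p = 0.04858), with both vehicles averaged (0.0207), with no filter on low counts (0.04678) and with DESeq2 (0.02235), but not with limma-voom. The edgeR fit with a replicate block also called NFKBIA (adjusted p = 0.01489).

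TNFAIP3 encodes A20, an enzyme that edits ubiquitin chains and shuts the pathway off. Its libraries were more scattered, with 49.6, 43.0 and 56.3 CPM with DLPC, against 56.1, 57.8 and 63.8 CPM with ethanol. The groups overlapped by a single DLPC library, and the log2 fold change was -0.25 (SE 0.09, edgeR adjusted p = 0.1963). Set against DMSO it was 0.00 (adjusted p = 0.9933), the ethanol libraries having the highest TNFAIP3 level of any group. Against ethanol, edgeR with a replicate block called the fall (adjusted p = 0.002552). The part of the vehicle in this difference was not tested.

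UBD had the log2 fold change farthest from 0 of the 9 tested members. It encodes FAT10, a ubiquitin-like protein that marks its substrates for the proteasome and is induced by inflammatory cytokines (chr6:29555515-29559925, minus strand). The DLPC libraries had 15.9, 18.7 and 15.6 CPM, against 34.5, 39.2 and 38.2 CPM in the ethanol libraries. The highest DLPC library stood well below the lowest ethanol library. UBD fell to 44.8% of the ethanol level, a log2 fold change of -1.16 (SE 0.11, edgeR adjusted p = 2.096e-05), and was at -1.09 against DMSO. In bulk RNA, fewer cells with the transcript and less RNA per cell cannot be told apart.

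In GENCODE release 29 the exons of UBD share 66.4% of their bases with the gene GABBR1 on the same strand and 76.9% with OR2I1P, an olfactory receptor pseudogene, on the opposite strand. How reads in such stretches were assigned is not given in the sources used here. GABBR1 had at most 6 counts in any library. OR2I1P had 16, 29 and 26 counts in the DLPC libraries, against 34, 69 and 31 counts in the ethanol libraries, where UBD had 441 to 541 and 1063 to 1290 counts. Its log2 fold change was -0.85 (SE 0.29, adjusted p = 0.1943), so both rows lay on the same side, and their part in each other's counts was not tested. Of the ICAM1 exons, 25.1% are shared with AC011511.5 on the opposite strand, which has no row in the table.

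ICAM1 encodes an adhesion molecule that binds leukocyte integrins (chr19:10270835-10286615, plus strand). The DLPC libraries had 88.4, 78.3 and 84.8 CPM, against 106, 107 and 109 CPM in the ethanol libraries. All 3 DLPC libraries were lower than any library of the other 5 groups, an arrangement whose share over all genes was not counted. ICAM1 fell to 78.1% of the ethanol level, a log2 fold change of -0.36 (SE 0.05, edgeR adjusted p = 0.001071), and stood at -0.27 (adjusted p = 0.007234) against DMSO. For CXCL8 the DLPC libraries held 0.144, 0.242 and 0.0936 CPM, against 0.514, 0.274 and 0.251 CPM in the ethanol libraries. With no filter on low counts its log2 fold change was -1.11, with a 95% interval of -2.30 to 0.07 and an adjusted p of 0.6033, so a difference was not detectable at this depth. The 4 calls were kept when any single DLPC or ethanol library was left out.

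**Figure D3:**
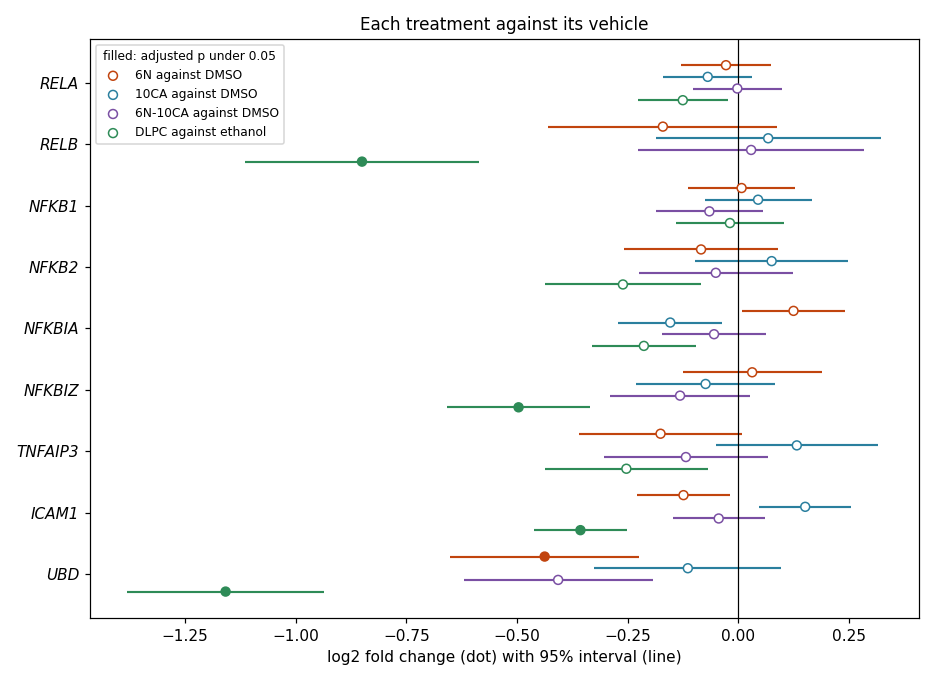
Log2 fold change (dots) with 95% intervals (lines) of the 9 tested members for 6N, 10CA and 6N-10CA against DMSO and DLPC against ethanol; filled dots have an adjusted p under 0.05. With DLPC, UBD lies at -1.16, RELB at -0.85, NFKBIZ at -0.50 and ICAM1 at -0.36, while with the small molecules only UBD with 6N is filled.

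With 6N, 1 of the 9 members fell and none rose, where 1.14% of all genes were called. That member was UBD, with 25.8, 28.6 and 24.6 CPM in the 6N libraries, against 32.7, 41.0 and 33.4 CPM in the DMSO libraries. The groups did not overlap, although a single DMSO library lay above the other two. UBD fell to 73.8% of the DMSO level, a log2 fold change of -0.44 (SE 0.10, edgeR adjusted p = 0.03862). The call was fragile: it was lost without any single 6N library (adjusted p = 0.1485, 0.05138 and 0.1715 without replicates 1, 2 and 3) and without DMSO replicate 2 (0.2071) or 3 (0.05415), and kept without DMSO replicate 1. Of 14 alternatives 9 kept the call and 5 lost it, at log2 fold changes of -0.50 to -0.33. OR2I1P had 25, 28 and 28 counts with 6N, against 63, 52 and 36 counts with DMSO, at an adjusted p of 0.2924.

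The other members did not pass with 6N. NFKBIA lay higher, at 101 ± 7.57 CPM in 6N libraries and 92.8 ± 5.34 CPM in DMSO libraries (SD, n = 3 each), with a log2 fold change of 0.13 (edgeR adjusted p = 0.4865). ICAM1 had a log2 fold change of -0.12 (adjusted p = 0.4068) with no overlap between the libraries, and TNFAIP3 one of -0.18 (adjusted p = 0.5757). The median over the 9 members was -0.08. Against ethanol in place of DMSO, TNFAIP3 at -0.43 (adjusted p = 0.01099) and ICAM1 at -0.21 (adjusted p = 0.03155) also passed.

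With 10CA, none of the 9 members passed edgeR's test, DESeq2 or limma-voom, and 2 had an unadjusted p under 0.05. Over all genes edgeR called 0% of 14797 in this comparison, the smallest adjusted p being 0.5652, against 13 genes with DESeq2 and 0 with limma-voom. At an unadjusted p under 0.05 there were 1033 genes. The 2 members were ICAM1 and NFKBIA, which lay on opposite sides. ICAM1 had 112, 106 and 119 CPM in the 10CA libraries, against 99.6, 99.4 and 104 CPM in the DMSO libraries, a log2 fold change of 0.15 (95% interval 0.05 to 0.26, adjusted p = 0.6628). NFKBIA had 85.9, 84.7 and 79.7 CPM in the 10CA libraries, against 89.3, 99.0 and 90.2 CPM in the DMSO libraries, a log2 fold change of -0.15 (95% interval -0.27 to -0.04, adjusted p = 0.6651). In neither gene did the groups overlap. The share of all genes without overlap is not given for this comparison, so this describes the 2 genes only. UBD stood at -0.11, with an interval of -0.32 to 0.10 that leaves out a fall as large as the one measured with DLPC.

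With 6N-10CA, none of the 9 members passed edgeR's test, where 0.264% of all genes were called. An unadjusted p under 0.05 was found in 9.91% of all tested genes and in 1 member. That gene was again UBD, with 26.2, 29.1 and 25.4 CPM in the 6N-10CA libraries, against 32.7, 41.0 and 33.4 CPM in the DMSO libraries. The groups did not overlap, and the log2 fold change of -0.41 (SE 0.10, adjusted p = 0.1104) was close in size to that with 6N. DESeq2 called it (adjusted p = 0.01584) and limma-voom did not. With edgeR it was called when the filter on low counts was lifted (adjusted p = 0.005489) or both vehicles were averaged (0.0245). It was also called with ethanol in place of DMSO (edgeR adjusted p = 0.04777) and with a replicate block (0.0002948). The remaining 8 members had log2 fold changes of -0.13 to 0.03, with NFKBIZ the lowest and RELB the highest.

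The small molecules were given at the same dose, and 3 pairs of them were compared. Between 10CA and 6N, 2 of the 9 members passed in opposite directions, where 1.71% of all genes were called. ICAM1 was higher with 10CA, with 112, 106 and 119 CPM, against 93.5, 94.3 and 90.3 CPM with 6N, a log2 fold change of 0.28 (SE 0.05, edgeR adjusted p = 0.004276). NFKBIA was lower with 10CA, with 85.9, 84.7 and 79.7 CPM, against 108, 92.8 and 103 CPM with 6N, a log2 fold change of -0.28 (SE 0.06, edgeR adjusted p = 0.01067). No library of either group overlapped the other in these genes. The leukocyte marker LYZ was also higher with 10CA, at 319 ± 22.1 CPM, against 256 ± 17.9 CPM with 6N (SD, n = 3 each), and so was the stromal marker PDGFRB, at 9.55 ± 1.09 CPM with 10CA and 6.205 ± 0.526 CPM with 6N (edgeR adjusted p = 0.02937 and 0.04485). LYZ was the exception in its list: 3 of the 4 tested leukocyte markers had a log2 fold change below 0, with a median of -0.14. The 6 leukocyte markers summed to 385 to 437 CPM with 10CA and 336 to 384 CPM with 6N, and most of each sum was LYZ. The 5 stromal markers summed to 9.39 to 11.2 CPM with 10CA and 6.21 to 7.06 CPM with 6N. The part of these markers in the result was not tested.

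In total 4 of the 9 members had all 10CA libraries above all 6N libraries, an order shared by 8.54% of all genes. These were RELB, TNFAIP3, ICAM1 and UBD. TNFAIP3 had 53.6, 53.1 and 56.5 CPM with 10CA, against 42.8, 41.2 and 47.7 CPM with 6N, a log2 fold change of 0.31 (edgeR adjusted p = 0.0879). UBD was at 0.32 (adjusted p = 0.128) and RELB at 0.24 (adjusted p = 0.4109). NFKBIA and NFKBIZ had all 10CA libraries below all 6N libraries, as did 8.18% of all genes. A fit with only the libraries of 10CA and 6N called no member, with adjusted p-values of 0.06022 for ICAM1 and 0.08321 for NFKBIA, and NFKBIA also lost its call without 6N replicate 1 (0.07357) or 10CA replicate 3 (0.08186). Lifting the filter on low counts added TNFAIP3 (0.007393) and UBD (0.02307).

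Between 6N-10CA and 6N none of the 9 members passed edgeR's test, DESeq2 or limma-voom, where edgeR called 1.64% of all genes. An unadjusted p under 0.05 was found in 2 members and in 14.4% of all tested genes. UBD was at 26.9 ± 1.96 CPM with 6N-10CA and 26.4 ± 2.04 CPM with 6N (SD, n = 3 each), with a 95% interval of -0.19 to 0.25 on the log2 scale. NFKBIA had 93.9, 87.6 and 86.5 CPM with 6N-10CA, against 108, 92.8 and 103 CPM with 6N, a log2 fold change of -0.18 (adjusted p = 0.1245) that passed without 6N replicate 2 (adjusted p = 0.04365). NFKBIZ had a log2 fold change of -0.16 (adjusted p = 0.3298).

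Between 6N-10CA and 10CA none of the 9 members passed either, where 0.23% of all genes were called. An unadjusted p under 0.05 was found in 3 members and in 8.4% of all tested genes. These were ICAM1, TNFAIP3 and UBD, whose 6N-10CA libraries all lay below the 10CA libraries. In NFKBIA they all lay above, at a log2 fold change of 0.10 (edgeR adjusted p = 0.6638). The share of all genes without overlap is not given for this pair, so these orders describe the members only. ICAM1 had 99.8, 94.1 and 99.97 CPM with 6N-10CA, against 112, 106 and 119 CPM with 10CA, a log2 fold change of -0.20 (SE 0.05, edgeR adjusted p = 0.1376), which DESeq2 called (adjusted p = 0.03023) and limma-voom did not. UBD stood at -0.29 (adjusted p = 0.3826) and TNFAIP3 at -0.25 (adjusted p = 0.3836). RELA, RELB, NFKB1 and NFKB2 had intervals that included 0 in all 3 pairs.

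**Figure D4:**
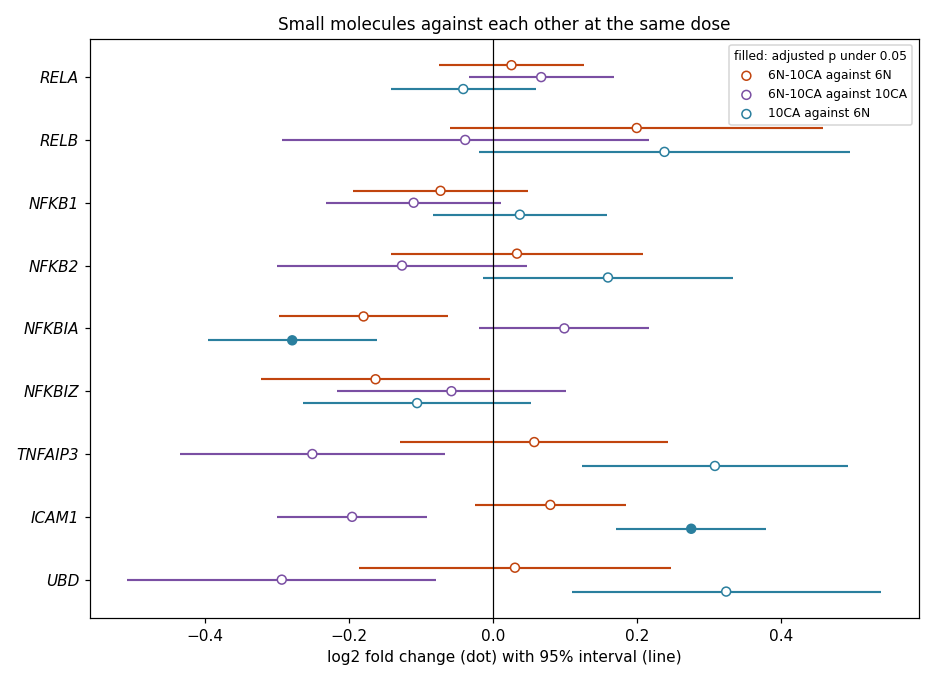
Log2 fold change (dots) with 95% intervals (lines) of the 9 tested members between small molecules at 10 µM; filled dots have an adjusted p under 0.05. ICAM1 at 0.28 and NFKBIA at -0.28, both for 10CA against 6N, are the filled ones.

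The vehicles were compared as a background. Between ethanol and DMSO none of the 9 members passed edgeR's test, DESeq2 or limma-voom, and 2 had an unadjusted p under 0.05. Over all genes edgeR called 0%, DESeq2 13 genes and limma-voom 0, and 479 genes had an unadjusted p under 0.05. The 2 members were TNFAIP3, with 56.1, 57.8 and 63.8 CPM in ethanol libraries, against 47.8, 45.7 and 55.3 CPM in DMSO libraries, and RELB, with 7.005, 7.12 and 6.90 CPM in ethanol libraries, against 5.39, 6.92 and 4.91 CPM in DMSO libraries. Their log2 fold changes were 0.26 and 0.29. In RELB the second DMSO library lay at the ethanol level and the other two below it. UBD, at 0.06 with an interval of -0.15 to 0.27, NFKBIA at 0.00 and NFKBIZ at 0.05 differed less between the vehicles.

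Each small molecule's response was also subtracted from the DLPC response, although dose and vehicle differ between them. Against the 6N response the DLPC response was lower in 3 of the 9 members, where 1.22% of all genes were called. These were UBD, by -0.72 on the log2 scale (SE 0.15, edgeR adjusted p = 0.01499), NFKBIZ, by -0.53 (SE 0.11, adjusted p = 0.01499), and NFKBIA, by -0.34 (SE 0.08, adjusted p = 0.04068). Behind the NFKBIA value lay log2 fold changes of -0.21 with DLPC and 0.13 with 6N, neither of which passed on its own. All 3 calls were lost without DMSO replicate 1, where the adjusted p-values were 0.05207 for UBD, 0.0517 for NFKBIZ and 0.1246 for NFKBIA. When libraries were left out singly, NFKBIA kept its call without DMSO replicate 2 or 6N replicate 2 and lost it without any of the others, as it did in a fit of the 4 groups concerned (0.05918), and UBD lost its own without DLPC replicate 1 (0.05353) or 3 (0.06041).

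Against the 10CA response, 3 members had a lower DLPC response, where 0.108% of all genes were called. ICAM1 differed by -0.51 (SE 0.07, edgeR adjusted p = 0.004521), UBD by -1.04 (SE 0.15, adjusted p = 0.004521) and RELB by -0.92 (SE 0.18, adjusted p = 0.04672). ICAM1 thus fell with DLPC while its log2 fold change with 10CA was 0.15. The RELB call was lost when any DLPC, ethanol or 10CA library was left out and without DMSO replicate 1 or 3, with adjusted p-values of 0.053 to 0.1416, and in a fit of the 4 groups concerned (0.0871). Against the 6N-10CA response no member passed edgeR's test, where 0.0676% of all genes were called. An unadjusted p under 0.05 was found in 4 members and in 963 of all 14797 tested genes. UBD came nearest at -0.75 (adjusted p = 0.05228), before RELB at -0.88 (0.05608) and ICAM1 at -0.31 (0.0969). DESeq2 called these 3 and limma-voom none, and without DMSO replicate 2 edgeR called UBD and RELB (adjusted p = 0.03973 for both).

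The order of the 6 groups differed between genes. For UBD the means were 16.7 CPM with DLPC, 26.4 with 6N, 26.9 with 6N-10CA, 33.0 with 10CA, 35.7 with DMSO and 37.3 CPM with ethanol, from the lowest to the highest. Only the steps between DLPC and 6N and between 6N-10CA and 10CA were free of overlap. ICAM1 ran DLPC, 6N, 6N-10CA, DMSO, ethanol and 10CA in the same direction, with no overlap between DLPC and 6N or between ethanol and DMSO. RELB was lowest with DLPC and highest with ethanol, and neither group overlapped its neighbour in the order. For NFKBIZ only DLPC stood free of its neighbour, 6N-10CA. NFKBIA was lowest with DLPC and highest with 6N, and among neighbours only 6N-10CA and 10CA did not overlap. In RELA, NFKB1, NFKB2 and TNFAIP3 every pair of neighbouring groups overlapped. Neighbours were set by sorting these same means, and the share of all genes free of overlap at such steps is not given. The steps therefore describe the members and are no test of them.

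Over the 18 libraries, the levels of some members moved together. Pearson's r on log2 CPM was 0.86 between NFKBIZ and UBD, 0.82 between RELB and UBD, 0.81 between RELB and ICAM1 and 0.80 between RELB and NFKBIZ. All of these include the DLPC libraries. After each group's own mean was subtracted, r was 0.60, 0.04, 0.18 and 0.70 for the same pairs. Among all tested genes averaging 1 CPM or more, those most like UBD were SCGN (r = 0.94), ANXA5 (0.91) and TAGLN (0.89), and those most like RELB were PLA2G2A (0.85), CFI (0.82) and UBD itself (0.82). NFKBIZ was most like ODAM (0.93), CHRNA5 (0.93) and GPX2 (0.89). ICAM1 was most like NKD1 (0.91), IGDCC3 (0.89) and CFI (0.85), and NFKBIA most like ATP6V0E1 (0.91), SSNA1 (0.89) and NT5C3B (0.88). These are descriptions over libraries that share groups.

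The rest of the pathway was read from 7 lists with 97 genes, of which 76 were tested and 21 lay under the filter. The genes under the filter included TNF, IL6, IL1B, CXCL1, CXCL10, CCL2, VCAM1 and PTGS2, classic products of strong NF-kB activation. With DLPC, 2 of the 6 tested cytokine and chemokine genes fell and none rose, while none of the 23 receptor and adaptor genes, 10 kinase genes, 6 further subunit and IkB genes, 9 ubiquitin-editing genes, 11 further target genes or 11 interferon and immunoproteasome genes passed edgeR's test. Of these 70 genes 8 had an unadjusted p under 0.05, which is 11.4%, near the 13% of all tested genes, and neither DESeq2 nor limma-voom called any. IL32, which encodes an inflammatory cytokine, was at 191 ± 6.04 CPM in DLPC libraries and 233 ± 4.06 CPM in ethanol libraries (SD, n = 3 each), a log2 fold change of -0.28 (adjusted p = 0.03452). The other was CXCL2, a neutrophil chemokine gene near the floor, at 0.0312 ± 0.0541 CPM with DLPC and 0.469 ± 0.0452 CPM with ethanol (SD, n = 3 each, edgeR adjusted p = 0.04239). Its DLPC libraries lay under the level that the filter asks for. It was thus tested only through groups where it is higher, and its call is no support for a fall. The median log2 fold change with DLPC was -0.22 over the cytokine list, -0.11 over the interferon list, -0.08 over the receptors, 0.05 over the kinases and -0.01 over the further targets.

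With 6N, 2 further pathway genes fell, where the shares called over all genes are those given above. IL1R1, the receptor of interleukin-1, was at 52.6 ± 4.29 CPM in 6N libraries and 65.0 ± 1.36 CPM in DMSO libraries (SD, n = 3 each), a log2 fold change of -0.30 (edgeR adjusted p = 0.02136). RBCK1, a subunit of the complex that builds linear ubiquitin chains, was at 215 ± 4.59 CPM in 6N libraries and 253 ± 2.91 CPM in DMSO libraries (SD, n = 3 each), at -0.24 (adjusted p = 0.0062). Both were higher with 10CA than with 6N, IL1R1 by 0.28 (adjusted p = 0.03278) and RBCK1 by 0.18 (adjusted p = 0.03866). RBCK1 was also higher with 6N-10CA than with 6N, by 0.28 (adjusted p = 0.0009605). CX3CL1, a membrane-bound chemokine gene, was lower with 10CA, at 106 ± 4.60 CPM, against 127 ± 6.66 CPM with 6N (SD, n = 3 each), at -0.26 (adjusted p = 0.01259). None of the 76 tested genes of the 7 lists passed edgeR's test with 10CA or 6N-10CA against DMSO, and DESeq2 called 0 and 2. At an unadjusted p under 0.05 there were 7 with 10CA and 10 with 6N-10CA, or 9.21% and 13.2%, where all tested genes gave 6.98% and 9.91%.

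The libraries carried the markers of the labelled line. ALB, the albumin gene, lay at 8060 to 10553 CPM, and the 8 hepatocyte markers summed to 56799 to 63743 CPM in DLPC libraries and 52607 to 60805 CPM in ethanol libraries. Of the leukocyte markers, PTPRC had at most 15 counts and CD3E at most 1 count in any library, whereas LYZ and CD68 reached 398 and 109 CPM. The 6 leukocyte markers summed to 438 to 514 CPM with DLPC and 410 to 466 CPM with ethanol. Of the 4 endothelial markers KDR was at 0 in every library, while CDH5 lay at 15.4 to 24.1 CPM, PECAM1 at 11.7 to 16.9 CPM and VWF at 2.48 to 5.57 CPM. Of the 5 stromal markers COL1A1 had at most 16 counts and PDGFRB lay at 5.49 to 10.6 CPM. The endothelial markers summed to 38.1 to 46.5 CPM with DLPC and 36.3 to 37.9 CPM with ethanol, and the stromal markers to 8.23 to 10.1 CPM with DLPC and 9.84 to 10.9 CPM with ethanol. Their part in the DLPC results was not tested.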

How the data were processed

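RNA of HepG2 cells was measured in 18 libraries, 3 for each of 6 groups, as single-end reads of 100 bases from amplified cDNA, per the labels' protocols. The values are raw counts, whole numbers listed by gene symbol, in 1 table that the authors deposited. The submitters' processing notes name GRCh38 and DESeq2, without a version. Not given in the sources used here are the aligner, the counting tool, the annotation, how long cells were treated and whether libraries kept strand, so reads of overlapping genes cannot be told apart. Spreadsheet software had turned 28 symbols into dates, none of them a member.

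Genes passed edgeR's filterByExpr (a minimum count of 10 and a total of 15), which left 14797 genes with 99.96% of counts. All 18 libraries entered a single edgeR 4.0.16 quasi-likelihood fit in R 4.3.3, with TMM scaling and 1 mean per group. Tests were two-sided with Benjamini-Hochberg adjustment over all tested genes at 0.05. The biological coefficient of variation was 6.96%, and 4.42% with a replicate block. Standard errors are the log2 fold change over the root of the F statistic, intervals are 95%, and both include the spread between libraries. CPM use TMM-scaled totals, and the floor is 3 counts per library, a limit of counting alone: without molecular identifiers, amplified reads do not count molecules independently. In each group replicates differed pairwise beyond sampling noise, at a chi-square of 4.48 to 13.67 per gene. CPM per kilobase use GENCODE release 29 exons, and start windows come from RefSeq on GRCh38.p14.

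Named genes are all members, called genes of the 7 pathway lists, and the 3 genes most like each called member. Marker genes, genes sharing exons with a member and some list genes under the filter are also named, outside this rule. The members and lists were chosen with earlier results of these data known. Alternatives were DESeq2 size factors, no filter, a replicate block, DESeq2 1.42.0, limma-voom (limma 3.58.1), only the groups compared, the other or both vehicles, and leaving out each library.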

Additional observations from a re-analysis of the deposited data

Results flagged for a closer look

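In 6 cases the response to DLPC against ethanol and the response to a small molecule against DMSO differed by a test of the difference itself (edgeR's quasi-likelihood test, Benjamini-Hochberg adjusted p under 0.05). On the log2 scale, the DLPC response minus the 6N response was -0.34 for NFKBIA, -0.53 for NFKBIZ and -0.72 for UBD. The DLPC response minus the 10CA response was -0.92 for RELB, -0.51 for ICAM1 and -1.04 for UBD. In all 6 cases the value with DLPC was the lower. DLPC was given at 100 µM in another vehicle than the small molecules, which were given at 10 µM, and dose, vehicle and compound cannot be told apart in these differences.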

How the results depend on the processing

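The falls of UBD, RELB, NFKBIZ and ICAM1 with DLPC against ethanol stayed past the threshold in all 14 alternatives run for each. No called value changed sign in any alternative. Over all members and comparisons, 1343 single values kept their side of the threshold, 36 lost it and 43 gained it. With a replicate block, 8 members (all but NFKB1) were called with DLPC against ethanol, 1 (UBD) with 6N-10CA against DMSO and 1 (NFKBIA) between 6N-10CA and 6N. The block called 3 (TNFAIP3, ICAM1 and UBD) between 6N-10CA and 10CA, 4 (these and NFKBIA) between 10CA and 6N, and 1 (TNFAIP3) between ethanol and DMSO. In the DLPC response minus the 6N, 10CA and 6N-10CA responses it called 5, 5 and 3. The main tests leave replicate number out, and members that miss the threshold there can pass with the block. The titles share replicate numbers only: same-numbered libraries correlated at 0.0036 to 0.182 in 45 pairs, 15 of them over 0.1, and 79 of 90 correlated best with their own number, a hint from the data and not the design. With no filter on low counts 1 member was called with 6N-10CA against DMSO, 4 between 10CA and 6N and 2 in the DLPC response minus the 6N-10CA response. DESeq2 added NFKBIA with DLPC against ethanol (adjusted p = 0.02235), TNFAIP3 between 10CA and 6N (0.02561) and RELB in the DLPC response minus the 6N response (0.03363), and called 1 member with 6N-10CA against DMSO, 1 between 6N-10CA and 10CA and 3 in the DLPC response minus the 6N-10CA response. With ethanol in place of DMSO, 3 members were called with 6N and 1 with 6N-10CA, and with both vehicles averaged 1 with 6N-10CA. A fit of only 10CA and 6N called 0. Leaving out each library in turn gave 0 to 1 with 6N against DMSO, 0 to 1 between 6N-10CA and 6N, 1 to 2 between 10CA and 6N, and 0 to 4, 2 to 3 and 0 to 2 in the DLPC response minus the 6N, 10CA and 6N-10CA responses. Over all genes, DLPC against ethanol gave 154 calls, and 997 with the block, 380 with DESeq2, 329 with no filter, 380 against DMSO, 541 against both vehicles and 56 to 118 without single libraries. In that order of block, DESeq2 and no filter, counts moved by over 1.5 times to 32, 13 and 20 against 0 with 10CA, to 562, 173 and 126 against 39 with 6N-10CA, to 1231, 501 and 403 against 242 between 6N-10CA and 6N, to 349, 119 and 154 against 34 between 6N-10CA and 10CA, to 1133, 496 and 423 against 253 between 10CA and 6N, to 18, 13 and 37 against 0 between the vehicles, and to 938, 339 and 325 against 180, 250, 93 and 95 against 16, and 216, 76 and 91 against 10 in the DLPC response minus the 6N, 10CA and 6N-10CA responses. With 6N the 169 calls were 551 with the block, 265 against ethanol, 270 against both vehicles and 111 to 149 without single libraries. With 6N-10CA they were 63 against ethanol, 129 against both vehicles, and 12 to 23 without single libraries. Fits of only the groups compared gave 13 with 6N-10CA against DMSO, 109 between 6N-10CA and 6N, 10 between 6N-10CA and 10CA and 112 between 10CA and 6N. Single libraries left out gave 138 to 235 between 6N-10CA and 6N, 14 to 28 between 6N-10CA and 10CA, 141 to 338 between 10CA and 6N, 0 to 7 between the vehicles, 0 to 1 with 10CA, and 95 to 194, 3 to 11 and 0 to 25 in the DLPC response minus the 6N, 10CA and 6N-10CA responses. The cause of these shifts was not tested. CXCL8 and CXCL2 lie near the floor of 0.0847 to 0.108 CPM, where depth limits any statement.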
